A study of Mus musculus with 17 samples.

Results

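The comparison is between Aire-knockout (KO) cells that carry the reporter signal and wild-type (WT) cells that lack it, both from perinatal mice. It asks what sets reporter-positive cells apart when Aire protein is absent. The 5 arrays are those whose titles name knockout GFP+ neonates (3 arrays) and GFP- neonates (2 arrays, all there are), out of 17 in the series. The other 12 arrays hold WT GFP+ cells of perinates (3) and, from adults of 5 weeks, 3 each of KO GFP+, WT GFP+ and WT GFP- cells. RNA of sorted medullary thymic epithelial cells was hybridised to whole-transcript mouse gene arrays, 1 sample to an array.

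The mice were C57BL/6, aged 3 days by the sample labels and 0 to 3 days by the series text, and every sample was labelled as of mixed sex. Both groups carried the Adig reporter, in which Aire regulatory sequence drives GFP fused to Igrp, the protein that G6pc2 encodes. The gate kept cells without CD45 or Ly51 and with much MHC class II, so the GFP- group holds the reporter-negative cells of that gate alone. No KO GFP- sample is among those analysed here, so that the reporter sort and the Aire genotype change together and cannot be told apart by these 2 groups alone. For that reason the perinate WT GFP+ arrays are given beside many results. KO against WT GFP+ cells differ by genotype, and WT GFP+ against WT GFP- cells differ by the sort. Neither comparison need differ by that alone. In KO against WT GFP+ cells 3 of 4 sex-linked genes were lower and 1 higher, where 13% of all genes were lower and 13.5% higher. Other differences between the groups, such as in preparation, were not tested. Those comparisons share arrays with the main one, and their values stand side by side without a test of likeness. Whether replicates were separate animals, pools or repeat extracts is not given in the labels. The p-values therefore measure only how much these samples vary, which may be technical variation.

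Medullary thymic epithelial cells display proteins of other organs to developing T cells, which removes self-reactive cells or turns them into regulatory T cells. Aire, a transcriptional regulator made in mature cells high in MHC class II, drives a large part of this ectopic expression. Cells of the medulla also include immature precursors that have not yet made Aire, and later cell states that have stopped making it and resemble tuft, keratinised, ciliated or secretory cells of other organs. The reporter marks cells in which the Aire gene is active, whether or not the protein is made.

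Arrays of the series had median intensities of 144.5 to 157.1 (linear units), and intensities under an array's 40th percentile, at 96.16 to 112.1, are close to background. Across the 13842 genes tested, KO arrays correlated with one another at 0.9818 to 0.9948 and with GFP- arrays at 0.8265 to 0.8635. The GFP- pair correlated at 0.9698. The 2 GFP- arrays differed by at least 2-fold in 249 genes (1.8%), of which 226 were brighter on GFP- array 1. Secretory transcripts led these: Bpifa2, a salivary protein, read 10677 on GFP- array 1 and 71.72 on GFP- array 2. KO arrays 2 and 3 differed by at least 2-fold in only 5 genes, and their log2 differences had an SD of 0.152, against 0.208 to 0.35 in the other pairs of arrays of 1 group. KO array 1 differed from KO arrays 2 and 3 by at least 2-fold in 105 and 99 genes. The Y-linked Uty, a histone demethylase, read 229.5 on KO array 1 and 168.9 and 274.2 on the GFP- arrays, but 19.24 and 16.14 on KO arrays 2 and 3, which goes against their label of mixed sex.

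Reporter-positive KO cells differed from reporter-negative WT cells in a large share of all genes. Of 13842 genes, 7015 (50.7%) passed limma's moderated test at a Benjamini-Hochberg adjusted p under 0.05 and are called here. Of these, 3682 (26.6% of the genes tested) were higher in KO GFP+ cells and 3333 (24.1%) lower. Calls with a difference of at least 2-fold numbered 1092 upward (7.89%) and 893 downward (6.45%). The KO and GFP- arrays did not overlap in 9437 genes (68.2%), 4878 with KO higher (35.2%) and 4559 with KO lower (32.9%). With KO array 1 as the only KO array, 4698 genes were called, and with any 1 of the 5 arrays left out, 5629 to 6381. The counts of members below are to be read against these shares. In bulk RNA, fewer cells of a type and less RNA per cell cannot be told apart.

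**Figure D1:**
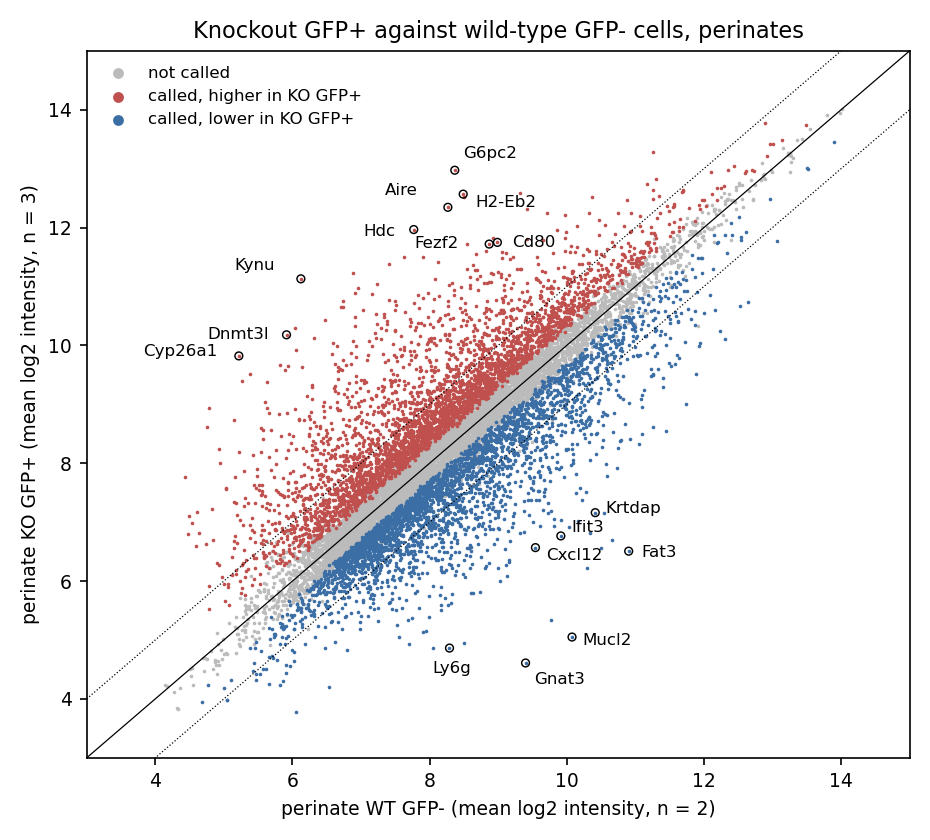
Mean log2 intensity of each of the 13842 genes tested in perinate WT GFP- cells (x axis, 2 arrays) and perinate KO GFP+ cells (y axis, 3 arrays). Red points are the 3682 genes called higher and blue points the 3333 called lower in KO GFP+ cells; grey points were not called, the solid line marks equality and dotted lines 2-fold differences.

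The transcripts that define the sort were higher in KO GFP+ cells. Aire read 270 and 351 on the GFP- arrays and 4072, 6000 and 5744 on the KO arrays. The groups lie far apart, with a 16.9-fold difference (log2 difference 4.08 ± 0.23 (SE), adjusted p = 5.87e-10). The deleted part of Aire is not given in the sources used here, so the Aire signal is no check of the knockout. Perinate WT GFP+ arrays read 4891, 4094 and 5336 for Aire, and KO against WT GFP+ cells did not pass the test (log2 difference 0.13, adjusted p = 0.661). G6pc2, the islet glucose-6-phosphatase whose product is part of the reporter fusion, read 253.9 and 429.1 in GFP- cells and 7421, 8442 and 8285 in KO cells (log2 difference 4.61 ± 0.16, adjusted p = 4.54e-12). Whether its probe set reads the reporter's own transcript was not tested.

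The highest fold differences belonged to transcripts with many different roles. Kynu, kynureninase of tryptophan breakdown, read 65.68 and 73.96 in GFP- cells, which is below the 40th percentile of any array, and 1822, 2746 and 2246 in KO cells. This was a 32.1-fold difference (log2 difference 5.01 ± 0.21, adjusted p = 4.14e-11). Cyp26a1, which degrades retinoic acid, read 37.32 and 37.15 against 613.2, 1126 and 1072 (24.3-fold). Dnmt3l, a cofactor of DNA methyltransferases in germ cells, read 64.85 and 56.03 against 1122, 1194 and 1163 (19.2-fold). In all 3 genes the GFP- level lay at background and the KO arrays lay far above it. The folds therefore depend on that floor.

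Others of the 15 largest increases were of immune or neural function. The histamine-making enzyme Hdc read 255.8 and 185.9 in GFP- cells and 2866, 4739 and 4710 in KO cells (18.3-fold). Cr2, a complement receptor, differed 17.5-fold, Ncf1, a subunit of the phagocyte NADPH oxidase, 16.2-fold, and the class II chain H2-Eb2 16.9-fold. The nicotinic receptor subunit Chrna5 and the sodium channel Scn9a were each 17.6-fold higher, while the proteoglycan Spock3 was 16.2-fold higher. Adgb, which encodes androglobin, was 19.2-fold higher, and Tvp23a, of Golgi trafficking, 20.3-fold. With KO array 1 alone Scn9a was 11.6-fold higher. Several were also higher than in WT GFP+ cells of the same age: Scn9a (log2 difference 1.56, adjusted p = 0.000135), Cyp26a1 (1.32, 9.86e-05), Cr2 (1.13, 0.00013) and Ncf1 (0.97, 5.11e-05).

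The milk protein Csn2 also rose. It read 408.4 and 320.9 in GFP- cells and 6090, 5977 and 5599 in KO cells, a 16.3-fold difference (log2 difference 4.02 ± 0.19, adjusted p = 1.28e-10). In WT GFP+ cells it read 5515, 4803 and 4044, and KO did not differ from WT GFP+ cells at the threshold (log2 difference 0.31, adjusted p = 0.188). The other caseins were at background in the compared groups: Csn1s1 read 36.16 and 18.37 in GFP- cells and 13.75 to 16.94 in KO cells. Csn1s1 was much lower in KO than in WT GFP+ cells (log2 difference -3.92, adjusted p = 1.34e-09).

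**Figure D2:**
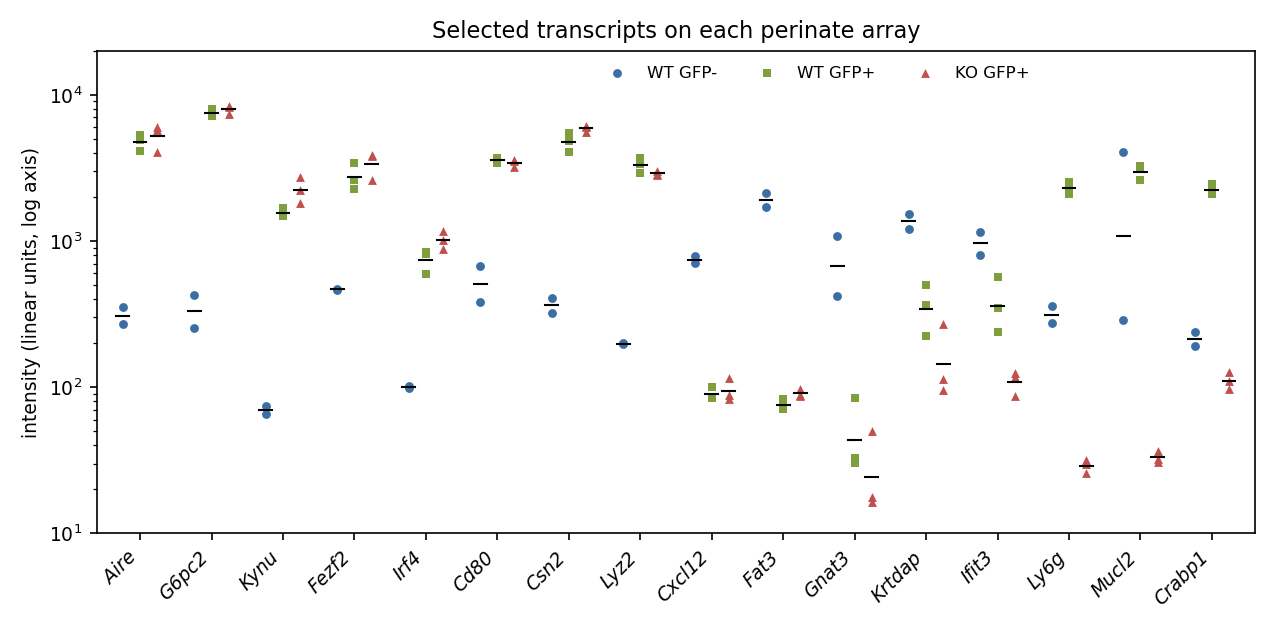
Intensity (linear units on a log axis) of 16 transcripts on each perinate array: WT GFP- (circles, 2 arrays), WT GFP+ (squares, 3) and KO GFP+ (triangles, 3), with a bar at each group's geometric mean. From Aire to Lyz2 both GFP+ groups lie above GFP- cells, from Cxcl12 to Ifit3 both lie below, and for Ly6g and Crabp1 WT GFP+ cells lie above and KO GFP+ cells below GFP- cells, as does the mean of Mucl2, whose GFP- arrays lie far apart at 4065 and 286.7.

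Regulators of the Aire-expressing stage were mostly higher in KO GFP+ cells. Of 16 members 11 were called higher and 1 lower, with a median log2 difference of 1.07, against 0.01 over all genes tested. Aire itself, whose regulatory sequence drives the reporter that the sort used, is among the 11. Fezf2, a transcription factor that drives other ectopic transcripts, read 470.7 and 464.1 in GFP- cells and 2609, 3880 and 3786 in KO cells (7.21-fold, adjusted p = 1.57e-09). Irf4 read 102 and 99.03 against 877.8, 1019 and 1162 (10.1-fold). Among receptors that bring cells to this stage, RANK (Tnfrsf11a) read 496.2 and 594.8 against 1825, 2177 and 2301 (3.85-fold). All 3 genes had KO arrays above both GFP- arrays by a wide margin. Cd40 was 4.89-fold and the adaptor Traf6 3.03-fold higher. The lymphotoxin receptor Ltbr went the other way, from 514.7 and 365.7 in GFP- cells to 239.8, 219.7 and 202.9 in KO cells (1.97-fold lower, adjusted p = 5.13e-05).

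The noncanonical NF-kB genes Nfkb2 (1.93-fold) and Relb (1.82-fold) were higher, and Map3k14, the kinase that starts this branch, only slightly so (log2 difference 0.31, adjusted p = 0.0361). In the wider list of NF-kB genes the direction was mixed, with 7 of 14 higher and 4 lower (median 0.36). Tnfrsf11b, the decoy receptor of the RANK ligand, read 521.2 and 321.2 in GFP- cells and 2709, 3145 and 3192 in KO cells (7.35-fold), and the adaptor Traf1 was 3.34-fold higher. The TNF receptor Tnfrsf1a was lower, from 1824 and 1256 to 486.8, 440.4 and 451.2 (3.3-fold, adjusted p = 1.04e-07). Tnfaip3, an inhibitor of the pathway, was 2.52-fold lower, but without GFP- array 1 it no longer passed (adjusted p = 0.0684), nor did it with KO array 1 alone (0.197). Against WT GFP+ cells of the same age 0 of these 14 genes were called (26.5% of all genes tested were called in that comparison).

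Costimulatory ligands formed the list with the highest median, 1.76, with 8 of 10 members higher and 2 lower. Cd80, a ligand of CD28 and CTLA4, read 671 and 384.3 in GFP- cells and 3587, 3529 and 3213 in KO cells (6.77-fold, adjusted p = 3.24e-09). Its relative Cd86 read 47.68 and 47.31 against 312.2, 351.4 and 360.2 (7.17-fold). Icosl, the ligand of ICOS, read 2171 and 2785 against 10002, 10176 and 9794 (4.06-fold). In each, all KO arrays lay above both GFP- arrays. The PD-1 ligands split: Pdcd1lg2 was 3.56-fold higher and Cd274 1.53-fold lower (adjusted p = 0.0362), with GFP- array 1 at 2714 but GFP- array 2 at 1206, within the KO arrays' range of 1150 to 1213.

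Genes of MHC class II presentation were higher in 9 of 11 cases and lower in 1 (median 0.61), in cells sorted for high surface MHC class II. The classical chains differed less than other members: H2-Ab1 read 8402 and 8056 in GFP- cells and 10579, 11664 and 10695 in KO cells (1.33-fold, adjusted p = 0.00105). H2-Ob, a chain of the H2-O protein that restrains peptide loading, read 131 and 113.8 against 802, 1196 and 1083 (8.3-fold), and its partner H2-Oa was 3.8-fold higher. The protease Ctss, which trims the invariant chain, was 4.57-fold higher, and Ciita, the master activator of class II genes, 2.67-fold higher. Both H2-Ob (log2 difference 0.66, adjusted p = 0.00749) and Ciita (0.94, 0.00659) were also higher than in WT GFP+ cells. Lgmn, a lysosomal endopeptidase, was lower, from 903.3 and 717.1 to 362.4, 304.3 and 307.4 (2.49-fold).

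Of 12 genes of MHC class I presentation 6 were higher and 2 lower (median 0.27). The increases belonged to chaperones of the endoplasmic reticulum (Calr 1.9-fold, Pdia3 1.74-fold, Canx 1.47-fold, Tapbp 1.32-fold) and to the immunoproteasome subunits Psmb10 (1.77-fold) and Psmb8 (1.38-fold). The peptide transporter Tap1 and the activator Nlrc5 were lower, by 0.46 each on the log2 scale (-0.46, adjusted p = 0.00599 and 0.0157). B2m, the shared light chain, had a log2 difference of 0.12 (adjusted p = 0.285).

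Chaperones of the unfolded protein response were among the called increases, while its transcription factors were not. Of 10 listed genes 5 were higher and 1 lower (median 0.80). Creld2 read 393.8 and 337.6 in GFP- cells and 1329, 2011 and 1763 in KO cells (4.6-fold, adjusted p = 2.01e-07), and Sdf2l1 was 4.41-fold higher. Hsp90b1, the chaperone GRP94, read 2289 and 2318 against 6196, 7119 and 7259 (2.97-fold). Hspa5, the chaperone BiP, was 2.27-fold and Pdia4, an oxidoreductase of protein folding, 2.09-fold higher. The factor Xbp1 was lower, from 2100 and 1947 to 1178, 1270 and 1280 (1.63-fold), and Ddit3 (log2 difference -0.15, adjusted p = 0.638) and Atf4 (-0.10, 0.714) were not called. The promoters of 3 of these genes hold the endoplasmic reticulum stress response element and are printed because those 3 rose together. They run 5′ to 3′ on the gene's strand from 250 bases before the transcription start to 50 bases after it, from RefSeq on build GRCm38.p6, in lower case with each match in capitals.
Hspa5, chr2:34771840-34772139, + strand: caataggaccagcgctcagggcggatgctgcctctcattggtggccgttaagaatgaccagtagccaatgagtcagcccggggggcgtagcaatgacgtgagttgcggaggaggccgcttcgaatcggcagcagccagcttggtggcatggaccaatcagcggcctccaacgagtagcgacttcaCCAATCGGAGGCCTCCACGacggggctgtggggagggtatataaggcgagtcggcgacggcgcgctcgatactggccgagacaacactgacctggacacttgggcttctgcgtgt
Creld2, chr15:88819396-88819695, + strand: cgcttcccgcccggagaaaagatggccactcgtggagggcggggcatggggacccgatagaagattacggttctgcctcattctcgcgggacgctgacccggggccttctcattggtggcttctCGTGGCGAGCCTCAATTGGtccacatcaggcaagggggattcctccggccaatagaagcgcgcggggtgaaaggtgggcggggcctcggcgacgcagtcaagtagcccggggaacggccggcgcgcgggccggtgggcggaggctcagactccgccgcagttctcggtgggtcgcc
Hsp90b1, chr10:86705395-86705694, - strand: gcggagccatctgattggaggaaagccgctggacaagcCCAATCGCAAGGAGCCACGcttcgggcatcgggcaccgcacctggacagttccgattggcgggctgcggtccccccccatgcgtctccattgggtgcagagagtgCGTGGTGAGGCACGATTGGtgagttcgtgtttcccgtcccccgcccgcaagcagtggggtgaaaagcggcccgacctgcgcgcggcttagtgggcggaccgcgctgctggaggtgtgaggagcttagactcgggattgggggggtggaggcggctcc

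The element was searched on both strands as CCAAT and CCACG with 9 bases of any kind between them. It was found in 15 of 10989 promoters of genes tested (0.137%) and in 3 of the 10 promoters of the list (30%). Sdf2l1 and Pdia4, which also rose, hold no exact match in this window. The shorter CCAAT, which is part of the element, was found in 37.9% of all promoters. Over all 1092 genes called at least 2-fold higher, of which 851 had a promoter in the table, 6 held the element (0.705%). The 3 promoters printed above are among these 6, so this share is not separate from them.

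Enzymes of cholesterol synthesis were also higher. Of 12 measured members 10 were higher and 0 lower, with a median log2 difference of 1.09. Idi1 read 428.6 and 290.5 in GFP- cells and 1933, 1683 and 1758 in KO cells (5.07-fold, adjusted p = 3.32e-08). Fdps was 3.8-fold, Msmo1 3.74-fold and Cyp51 2.76-fold higher. Against WT GFP+ cells 0 of the 12 were called, with a median of 0.02. Subunits of oxidative phosphorylation were called higher in 9 of 12 cases with small differences (median 0.46), led by Ndufa4 (1.74-fold) and Cox4i1 (1.67-fold). Without GFP- array 2 only 5 of these 12 were called, and Ndufa4 no longer was (adjusted p = 0.0997).

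Most cell cycle transcripts were higher. All 17 tested genes of mitosis were called higher, with a median log2 difference of 0.92 and a range from 0.51 for Birc5 to 1.41 for Top2a. Top2a, which untangles chromosomes, read 617.2 and 567.4 in GFP- cells and 1706, 1458 and 1552 in KO cells (2.65-fold, adjusted p = 0.000122). The mitotic kinase Cdk1 read 911.3 and 877.8 against 2215, 1960 and 1895 (2.26-fold). Of 18 genes of DNA replication 14 were higher and 0 lower (median 0.58), led by the cyclin Ccne2 (2.98-fold) and Rrm2, a subunit of ribonucleotide reductase (2.64-fold). Without GFP- array 1, 9 of these 18 were called. Against WT GFP+ cells of the same age 8 of the 17 mitosis genes and 9 of the 18 replication genes were called higher in KO cells, where 13.5% of all genes were.

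**Figure D3:**
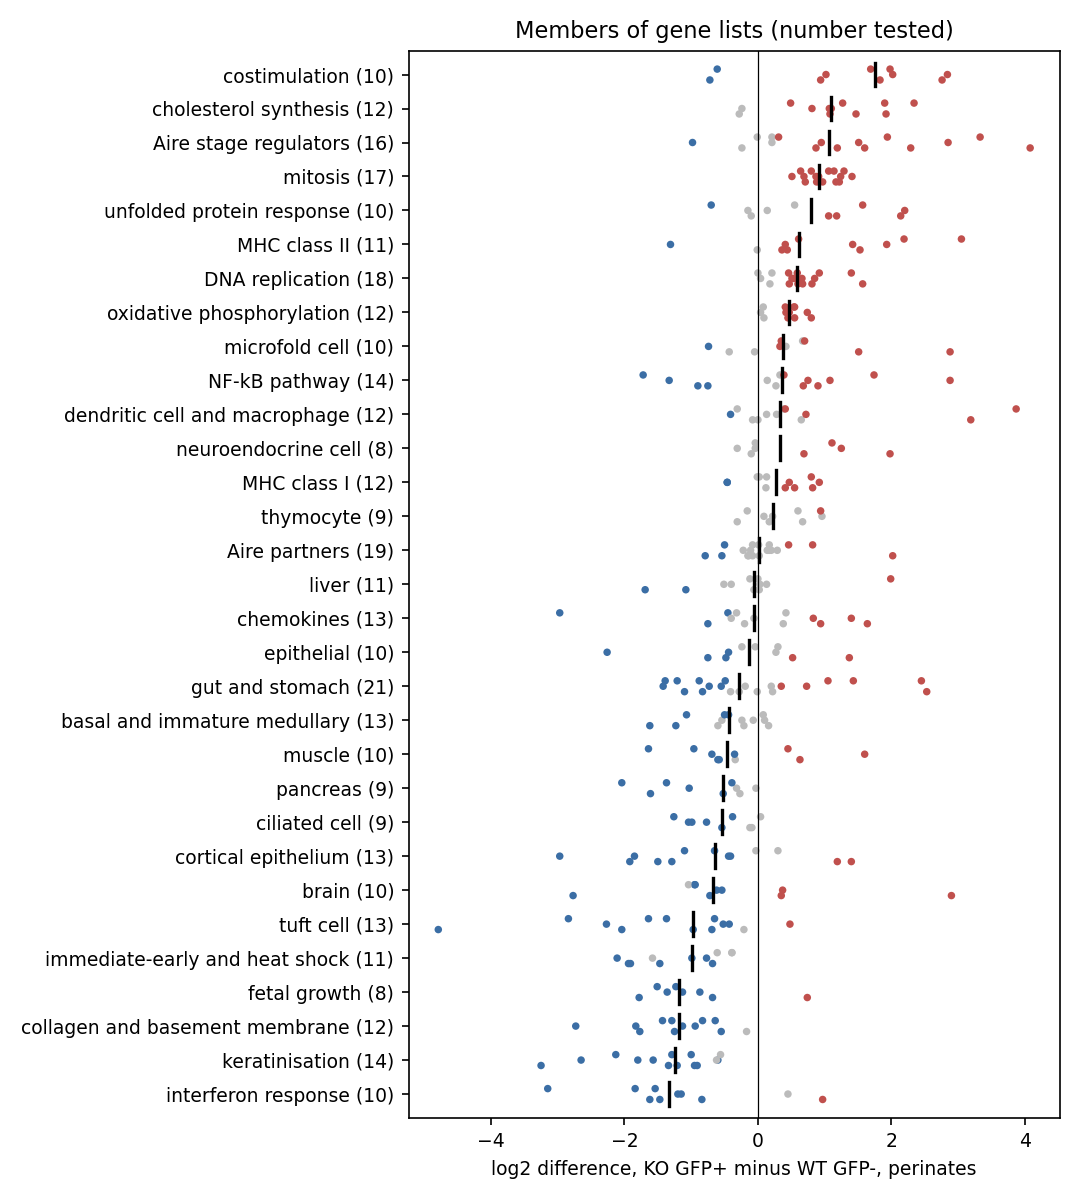
Log2 difference (KO GFP+ minus WT GFP-, perinates) of each tested member of the gene lists with at least 8 tested genes, given in brackets; red and blue points were called higher and lower, grey points were not called, and the black bar is the list's median. Medians run from 1.76 for costimulation to -1.34 for the interferon response.

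The transcripts that were lowest in KO GFP+ cells, relative to GFP- cells, included a cadherin, a taste signalling protein and secreted proteins. Fat3, an atypical cadherin, read 1710 and 2142 in GFP- cells and 88.92, 97.13 and 87.17 in KO cells, a 21-fold difference (log2 difference -4.39 ± 0.23, adjusted p = 3.12e-10). WT GFP+ cells read 71.19, 74.15 and 82.7 for Fat3, as low as KO cells. The array has 15 probe sets for Fat3, and these values are from the one with the highest mean alone. Gnat3, the taste G protein gustducin of tuft cells, read 1079 and 422.2 against 50.2, 17.73 and 16.36 (27.6-fold, adjusted p = 1.75e-06). The KO values of both are at or near background. The Gnat3 difference was 17.3-fold without GFP- array 1, 44.3-fold without GFP- array 2 and 13.5-fold with KO array 1 alone.

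Secreted proteins of glands and airways were lower as well, and here the 2 GFP- arrays disagreed. Mucl2, a salivary mucin-like protein, read 4065 and 286.7 in GFP- cells and 36.37, 32.35 and 30.9 in KO cells (32.6-fold, adjusted p = 1.13e-05). Without GFP- array 1 the difference was 8.63-fold, and without GFP- array 2 it was 123-fold. Bpifa2 was 21.6-fold lower, but 1.77-fold without GFP- array 1 and 263-fold without GFP- array 2. It lost its call in a fit of the 5 arrays alone (adjusted p = 0.0727) and with KO array 1 alone (0.0564). Bpifa1, its airway relative, read 3330 and 778.9 against 135.2, 88.92 and 93.23 (15.5-fold, 7.52-fold without GFP- array 1 and 32-fold without GFP- array 2). All 6 tested salivary and lacrimal transcripts were called lower, with a median of -2.59. Scgb1a1, the club cell secretoglobin, had GFP- arrays close together at 1382 and 1151 against 131, 47.5 and 67.61 in KO cells (16.8-fold, 9.65-fold with KO array 1 alone).

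Other large decreases had other roles. F3, the clotting initiator tissue factor, was 15.3-fold lower, and 9.71-fold without GFP- array 1, 24.1-fold without GFP- array 2 and 9.25-fold with KO array 1 alone. The serpin Serpinb11 was 11.8-fold lower, and 7.16-fold, 19.4-fold and 7.73-fold in those fits. Penk, the enkephalin precursor, read 1396 and 1210 in GFP- cells and 197.2, 97.26 and 74.38 in KO cells (11.5-fold, 6.59-fold with KO array 1 alone). Gsta4, a glutathione transferase, was 10.4-fold lower (6.68-fold with KO array 1 alone), and Crabp2, which binds retinoic acid, 8.85-fold lower. WT GFP+ arrays read 898.9, 748.3 and 909.8 for Penk, between those groups.

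Surface antigens of the Ly6 family, Ly6g and Ly6a2, stood below GFP- cells in KO and above them in WT GFP+ cells. Ly6g read 358.6 and 273.1 in GFP- cells, 31.93, 25.88 and 29.81 in KO cells and 2083, 2362 and 2536 in WT GFP+ cells. KO cells were 10.8-fold below GFP- cells (log2 difference -3.43 ± 0.17, adjusted p = 2.02e-10) and lower than WT GFP+ cells by a log2 difference of -6.32 (adjusted p = 6.37e-14). Ly6a2 read 233.4 and 299.1 in GFP- cells and 30.95, 25.21 and 32.2 in KO cells (9.02-fold lower). Its WT GFP+ arrays read 1520, 1704 and 1906.

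Markers of the epithelial cell states in the GFP- gate were lower in KO GFP+ cells for most lists. Of 13 cortical epithelial genes 9 were lower and 2 higher (median -0.65), although the sort excluded Ly51-positive cells, the cortical type. The chemokine Cxcl12 read 704.1 and 790.1 in GFP- cells and 88.37, 83.18 and 116.1 in KO cells (7.86-fold, adjusted p = 7.39e-11), with KO arrays near background. Pax1, a transcription factor of the thymus anlage, read 2412 and 1969 against 550.4, 529.4 and 650.7 (3.79-fold). The cortical protease Prss16 was 3.61-fold and the thymoproteasome subunit Psmb11 2.84-fold lower. Their summed level over the 13 genes lay at 22195 to 23091 on GFP- arrays and 14352 to 19463 on KO arrays. Ccl25, a chemoattractant of thymocytes (2.63-fold), and Tbata (2.28-fold) were higher.

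Of 13 markers of basal or immature medullary cells 5 were lower and 0 higher (median -0.44). The podoplanin gene Pdpn read 2728 and 2099 in GFP- cells and 1064, 663.6 and 665.1 in KO cells (3.08-fold). The laminin chain Lamb3 was 2.34-fold and Trp63, the p63 transcription factor, 2.1-fold lower. The basal keratins Krt5 (log2 difference -0.60, adjusted p = 0.158) and Krt14 (-0.54, 0.112) were not called. Krt15 was called (adjusted p = 0.0305) but not when either GFP- array 1 (0.273), KO array 2 (0.0853) or KO array 3 (0.117) was left out.

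Tuft cell markers were lower in 11 of 13 cases and higher in 1 (median -0.97). The ion channel Trpm5 read 408.2 and 201.4 in GFP- cells and 52.96, 57.41 and 69.77 in KO cells (4.81-fold, adjusted p = 1.06e-06), and the phospholipase Plcb2 702.4 and 467 against 84.03, 90.73 and 67.24 (7.16-fold). The tuft master regulator Pou2f3 was 1.96-fold lower. GFP- array 1 was the brighter of the pair in all 11, and without it 6 were called lower. Alox5ap, of leukotriene synthesis, was 4.1-fold lower, and 2.6-fold without that array and 6.45-fold without GFP- array 2.

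Genes of keratinisation were lower in 12 of 14 cases and higher in 0 (median -1.25). Krtdap, of differentiating keratinocytes, read 1536 and 1213 in GFP- cells and 269.2, 113.4 and 96 in KO cells (9.54-fold, 5.06-fold with KO array 1 alone). Cnfn, of the cornified envelope, read 1630 and 779.8 against 193.6, 162.1 and 184.8 (6.27-fold). The keratins Krt1 and Krt10 of upper skin layers were 2.97-fold and 2.44-fold lower. In WT GFP+ against GFP- cells only 3 of these 14 were lower and 2 higher, where 20.5% of all genes were lower. In KO against WT GFP+ cells 11 were lower, where 13% of all genes were.

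Ciliated cell and ionocyte genes were lower or not called, while most called microfold cell and neuroendocrine genes were higher. Of 9 ciliated cell genes 6 were lower (median -0.54), among them Trp73 (1.99-fold), while Foxj1, the master regulator of motile cilia, was not called (log2 difference -0.12, adjusted p = 0.47). Dynlrb2 was 2.4-fold lower, and 1.54-fold without GFP- array 1 and 3.76-fold without GFP- array 2. Of 5 ionocyte genes 3 were lower (median -0.35), led by Foxi1 at 104.3 and 121 in GFP- cells and 67.32 to 79.34 in KO cells, and only 1 was called without GFP- array 2. Of 10 microfold cell genes 5 were higher and 1 lower (median 0.38), led by Tnfrsf11b and by Spib, a transcription factor at 1010 and 1282 against 3253, 3129 and 3358 (2.85-fold). Of 8 neuroendocrine genes 4 were higher and 0 lower (median 0.33). Insm1, a regulator of endocrine differentiation, read 330.9 and 217.3 against 785.5, 1186 and 1269 (3.94-fold), and the receptor Ret was 2.16-fold higher.

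Matrix genes were lower. Of 12 collagen and basement membrane genes 11 were lower and 0 higher, with a median of -1.19. Sparc, a collagen-binding matrix protein, read 3506 and 3309 in GFP- cells and 488, 490.6 and 562.8 in KO cells (6.64-fold, adjusted p = 1.57e-09). Lamb1, a laminin chain, was 3.55-fold and fibronectin (Fn1) 3.41-fold lower. In WT GFP+ against GFP- cells 11 of the 12 were lower too, where 20.5% of all genes were. Of 8 genes of fetal growth 7 were lower and 1 higher (median -1.18): the growth factor Igf2 read 696.4 and 402.7 against 211.2, 127 and 136 (3.44-fold), Meg3 was 2.86-fold and Hmga2 2.57-fold lower, and Plagl1 was 1.67-fold higher.

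Interferon-response genes had the lowest median of the larger lists, -1.34, with 8 of 10 lower and 1 higher. Ifit3 read 1158 and 802.7 in GFP- cells and 86.65, 125.9 and 118.2 in KO cells (8.86-fold, adjusted p = 3.13e-06). Irf7, which amplifies the response, read 864.1 and 710.9 against 232.7, 212.3 and 211.8 (3.58-fold), and the antiviral Rsad2 was 3.07-fold lower. WT GFP+ arrays read 237.1, 563 and 349.3 for Ifit3, between the groups, and KO was below WT GFP+ cells as well (log2 difference -1.73, adjusted p = 0.00117). Usp18, which dampens interferon signalling, was the 1 member called higher (1.96-fold). The promoters of Ifit3 and Ifit1 (2.78-fold lower) are printed as examples of the promoters that hold the interferon-stimulated response element. Each of them holds 2 matches, shown in capitals in the window and build given above, and so does the promoter of Oas1a.
Ifit3, chr19:34583279-34583578, + strand: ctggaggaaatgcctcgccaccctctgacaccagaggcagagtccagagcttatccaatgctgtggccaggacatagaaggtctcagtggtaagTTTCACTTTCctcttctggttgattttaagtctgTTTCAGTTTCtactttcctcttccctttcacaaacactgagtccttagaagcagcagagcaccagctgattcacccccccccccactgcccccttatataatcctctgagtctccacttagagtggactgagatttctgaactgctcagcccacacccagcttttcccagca
Ifit1, chr19:34640639-34640938, + strand: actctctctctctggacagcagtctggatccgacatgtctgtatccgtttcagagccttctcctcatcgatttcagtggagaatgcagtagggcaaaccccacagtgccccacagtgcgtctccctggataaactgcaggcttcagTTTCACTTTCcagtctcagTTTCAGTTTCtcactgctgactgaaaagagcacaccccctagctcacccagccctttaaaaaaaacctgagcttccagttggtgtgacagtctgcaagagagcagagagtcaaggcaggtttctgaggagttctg

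The element was searched on both strands as GAAA, any 2 bases, and GAAA again. It was found in 317 of 10989 promoters (2.88%) and in 4 of the 7 promoters the table holds for the list (57.1%): Ifit1, Ifit3, Rsad2 and Oas1a. In the promoters of genes called at least 2-fold higher or lower its share was 4.35% and 4.33%. The median promoter held 15 CpG pairs in both of these sets and 20 over all genes tested.

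Immediate-early genes moved with single arrays. Of 11 immediate-early and heat shock genes 7 were called lower and 0 higher (median -0.99), but 4 without KO array 2, KO array 3 or GFP- array 1, and 1 with KO array 1 as the only KO array. Atf3 read 5290 and 2921 in GFP- cells and 2875, 575.3 and 695.6 in KO cells. KO array 1 lay next to GFP- array 2, and its difference of 3.75-fold (adjusted p = 0.0141) was 1.37-fold with that KO array alone and 6.23-fold without it. It was not called without KO array 2 (0.0653), KO array 3 (0.0541) or GFP- array 1 (0.127). Nr4a1 had the same pattern (4.33-fold, adjusted p = 0.0209, 1.55-fold with KO array 1 alone and 7.26-fold without it), and its call was lost in the same 3 fits (0.0795, 0.0759 and 0.189). Ier3, an early response gene, had groups that did not overlap, at 751.5 and 489.8 against 202.5, 143.8 and 136.7 (3.83-fold).

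Transcripts of gut, liver, pancreas and brain were mostly higher in WT GFP+ cells, but not in KO GFP+ cells, than in cells without the reporter. In WT GFP+ against GFP- cells, gut and stomach genes were higher in 18 of 21 cases (median 1.07), where 43.5% of all genes were called and 23% were called higher. In KO GFP+ against the same GFP- cells only 6 were higher and 9 lower (median -0.28). Cdh17, an intestinal cadherin, was among the 6: it read 167.5 and 153.4 in GFP- cells and 827.9, 906.8 and 1067 in KO cells (5.79-fold, adjusted p = 1.22e-09), and 1078, 986.1 and 849.8 in WT GFP+ cells. Sis, sucrase-isomaltase, was 5.47-fold higher. Pgc, the pepsinogen of stomach, read 155.2 and 129.4 against 55.61, 54.58 and 52.57 (2.61-fold lower), and Muc5ac, a gastric mucin, was 2.68-fold lower.

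The liver, pancreas and brain lists showed the same order of groups. Liver genes were higher in 9 of 11 cases in WT GFP+ cells and in 1 of 11 in KO cells, both against GFP- cells (medians 1.25 and -0.06). That 1 gene, Tdo2, a tryptophan dioxygenase, read 23.74 and 24.79 against 110.8, 81.72 and 98.5 in KO cells. On KO arrays 2 and 3 its level lay under those arrays' 40th percentiles of 99.431 and 99.169, close to background. Pancreas genes were higher in 7 of 9 cases in WT GFP+ cells and in 0 in KO cells, where 6 were lower (medians 1.17 and -0.52). Somatostatin (Sst) read 395.7 and 216.6 in GFP- cells and 113.1, 102.5 and 126 in KO cells (2.58-fold), pancreatic polypeptide (Ppy) was 3.05-fold and the digestive enzyme Ctrb1 4.12-fold lower. Brain genes were higher in 9 of 10 cases in WT GFP+ cells and in 3 in KO cells, where 6 were lower (medians 2.06 and -0.67), or 3 without GFP- array 1 and with KO array 1 alone.

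The brain list held members at both ends. Syt1, a calcium sensor of synaptic vesicles, read 753.8 and 622.2 in GFP- cells and 4451, 5512 and 5417 in KO cells (7.45-fold, adjusted p = 1.44e-10), close to the WT GFP+ arrays' 4320 to 5189. Tac2, a tachykinin precursor, read 306.1 and 185.6 against 35.11, 30.33 and 40.09 (6.82-fold lower, adjusted p = 9e-08), while WT GFP+ arrays read 1059, 942.9 and 1451. Crabp1, which binds retinoic acid, read 238.9 and 190.5 against 97.11, 110.7 and 127.3 (1.92-fold lower), with WT GFP+ arrays at 2092 to 2444. For both of these the reporter-positive cells were above GFP- cells in WT and below them in KO.

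Muscle genes were mixed, with 3 of 10 higher and 6 lower (median -0.46): titin (Ttn) was 3.03-fold higher and the myosin light chain Myl1 3.11-fold lower. Among 4 retina and lens genes 1, Cryaa, was lower (1.68-fold), and neither of the 2 tested testis genes was called. Of 6 milk, enamel and seminal genes 2 were higher (Csn2 and Csn3) and 3 lower (Csn1s1, Csn1s2a and Wap), but with an offset of 50 only 1 was lower. Csn1s1 was not called without GFP- array 1 (adjusted p = 0.428) or KO array 2 (0.0632). Csn3 read 43.38 to 48.53 in KO cells, which is below the 40th percentile of every array. In WT GFP+ against GFP- cells 4 of the 10 muscle genes were higher and 3 lower, and of the 6 salivary and lacrimal genes 2 were higher and 1 lower. All 6 milk, enamel and seminal genes, 1 of 4 retina and lens genes and 1 of 2 testis genes were higher there. Of all genes tested 23% were higher and 20.5% lower in that comparison.

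The chemokine list was mixed. Of 13 listed, 4 were higher and 3 lower (median -0.06). Ccl22, which attracts CCR4-bearing cells, read 137.1 and 131.2 in GFP- cells and 655, 335.7 and 331.2 in KO cells (3.11-fold, 4.89-fold with KO array 1 alone). Cxcl13 read 160.7 and 102.1 against 243.8, 132.7 and 142.1 (adjusted p = 0.305), and WT GFP+ arrays read 2722 to 2904, so that KO was lower than WT GFP+ cells by a log2 difference of -4.07 (adjusted p = 7.21e-09). Against WT GFP+ cells 8 of the 13 were lower, where 13% of all genes were.

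Proteins that assist Aire in transcription had a median of 0.01, the same as all genes, with 3 of 19 higher and 3 lower. Sirt1, the deacetylase of this set, read 885.5 and 436 in GFP- cells and 1880, 2973 and 2861 in KO cells (4.05-fold, adjusted p = 9.67e-06). Parp1 was 1.77-fold and Prkdc 1.37-fold higher. Xrcc5 was 1.73-fold lower, but not called without GFP- array 2 (adjusted p = 0.13).

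The differences between adult groups gave 3 further lists. No array is shared with the perinate groups, but the spread was estimated over all 17 arrays in 1 model. List A holds 606 genes called and at least 2-fold lower in adult KO than adult WT GFP+ cells (4.38% of genes tested). List B holds 411 genes called and at least 2-fold higher in adult WT GFP+ than GFP- cells (5.84% were) that differed by less than 1.5-fold between adult KO and WT. List C holds 567 genes called and at least 2-fold lower in adult WT GFP+ than GFP- cells (4.1%). In the perinate comparison 381 of the 411 genes of list B were called higher and 4 lower (median 1.41). Of list C 448 of 567 were lower and 3 higher (median -1.05). Of list A 294 of 606 were lower and 44 higher (median -0.42), while 452 were higher in perinate WT GFP+ than GFP- cells. With an offset of 50 units before the log, which damps dim genes, the lists were picked again on the changed values. Of the lists so picked, 166 genes of list A and 291 of list C were called lower. These are not shares of the 606 and 567 genes above.

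**Figure D4:**
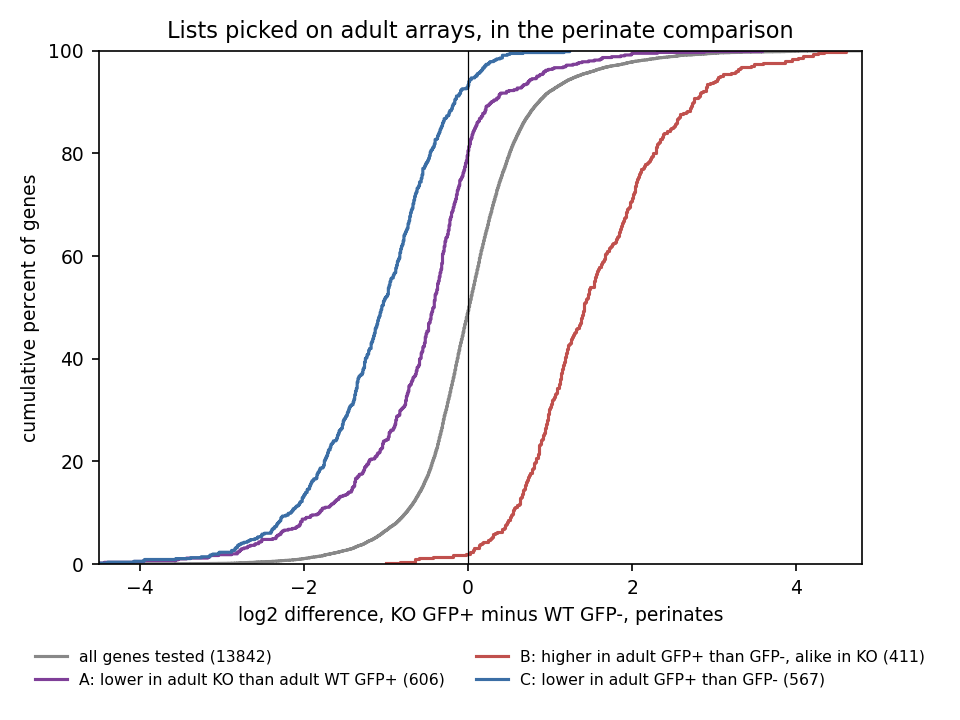
Cumulative percent of genes (y axis) against the log2 difference of perinate KO GFP+ minus WT GFP- cells (x axis) for all 13842 genes tested and for lists A (606), B (411) and C (567) picked on differences between adult groups. The median is 1.41 for list B, -0.42 for list A, -1.05 for list C and 0.01 for all genes.

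The exceptions to these directions were few in lists B and C. In list B, Prune2 read 156.3 and 179.3 in GFP- cells and 90.14, 93.51 and 98.13 in KO cells (1.78-fold lower), and Ramp3, a partner of calcitonin-family receptors, was 1.55-fold and the matrix protein Fbln5 1.52-fold lower. The complement inhibitor Cd59a, the fourth, was not called without GFP- array 1 (adjusted p = 0.687), KO array 1 (0.0511) or KO array 2 (0.119). In list C, Il12rb2, a chain of the interleukin-12 receptor, read 94.1 and 80.29 against 172.8, 204.3 and 244 (2.36-fold higher). Efcab1 was 2.26-fold and the glutathione transferase Mgst1 1.6-fold higher, the latter not without GFP- array 2 (adjusted p = 0.135).

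Of the 44 genes of list A that were higher in KO cells, the largest difference belonged to Fabp7, a brain fatty acid-binding protein, at 156.5 and 108.1 in GFP- cells and 1885, 1412 and 1430 in KO cells (12-fold, adjusted p = 3.95e-09). Tnmd, tenomodulin of tendon, was 7.38-fold and Slc18a1, a vesicular amine transporter, 4.97-fold higher. The lysozyme Lyz1 read 473.4 and 353.7 against 2061, 1383 and 1535 (4-fold higher), with WT GFP+ arrays at 3186 to 4452. In Lyz1 the KO arrays lay between GFP- and WT GFP+ cells.

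Markers of other cell types that the gate could hold were checked for each group. Epithelial markers were high in both, with Krt8 at 7532 and 5539 in GFP- cells and 5710, 6900 and 6314 in KO cells. Of 10 such markers 2 were higher and 4 lower, including Krt19 (4.8-fold lower), and their summed level was 23819 to 26508 on GFP- arrays and 21541 to 24201 on KO arrays. The thymocyte list had 1 of 9 genes called, Cd4, at 96.29 and 99.46 against 156.3, 191.8 and 222 (1.92-fold higher), and it was not called with KO array 1 alone (adjusted p = 0.0718). Its summed level was 1342 to 1496 on GFP- and 1421 to 1843 on KO arrays. Cd4 was lower in KO than WT GFP+ cells (log2 difference -0.74, adjusted p = 0.00789).

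Of 12 dendritic cell and macrophage genes 4 were higher and 1 lower (median 0.33). The lysozyme Lyz2 read 199.1 and 196.2 in GFP- cells and 2828, 2873 and 2992 in KO cells, a 14.7-fold difference (log2 difference 3.87 ± 0.11, adjusted p = 9.15e-13), and Fcer1g, a signalling chain of Fc receptors, 133.2 and 103.7 against 906.6, 1159 and 1179 (9.14-fold). The other members called higher were Flt3, a cytokine receptor (log2 difference 0.72, not called without GFP- array 1, adjusted p = 0.0874), and Zbtb46, a transcription factor of dendritic cells (0.41). Zbtb46 was not called without KO array 2 (adjusted p = 0.0751), KO array 3 (0.0533) or GFP- array 2 (0.0859). The integrin Itgam was the 1 member called lower (-0.41). The summed level of the 13 listed genes was 1295 to 1553 on GFP- and 4926 to 5495 on KO arrays. On WT GFP+ arrays it was 5141 to 5879. In WT GFP+ against GFP- cells 8 of the 12 tested were higher, where 23% of all genes were. In KO against WT GFP+ cells 1 was higher and 6 lower, where 13.5% and 13% of all genes were. Most of the sum on KO arrays came from Lyz2 (2828 to 2992) and Fcer1g (906.6 to 1179). The pan-leukocyte gene Ptprc, whose product CD45 was excluded by the sort, read 81.69 and 82.98 against 113.6, 128.8 and 147 (adjusted p = 0.0907). The defining markers Csf1r (66.78 to 83.98 in KO cells), Adgre1 (48.57 to 54.97) and Xcr1 (52.53 to 54.14) stayed under the 40th percentile of every array. The part of such cells in the Lyz2 and Fcer1g results was not tested beyond these values.

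Of 4 tested B cell genes 3 were higher: Blnk, an adaptor of antigen receptor signalling (4.47-fold), Cd79b (2.29-fold) and Pax5 (1.39-fold). Their summed level with the 2 untested genes was 727.1 to 934.3 on GFP- and 2147 to 2192 on KO arrays. Blnk made up 1258 to 1331 of the sum in KO cells. On WT GFP+ arrays the sum was 1957 to 2034. Fibroblast genes were split, with Lum (3.97-fold) and Dcn (1.49-fold) higher and 4 of 6 lower by 0.36 to 0.61 on the log2 scale, namely Col1a1 (-0.61), Pdgfra (-0.50), Col1a2 (-0.37) and Col3a1 (-0.36). Of these 4 only 1 was called without KO array 1 or without GFP- array 1. Of 6 endothelial genes Pecam1 and Cdh5 were higher (1.69-fold each), and neither was called without GFP- array 2. The erythroid Alas2 was 2.36-fold higher. The Y-linked Eif2s3y, Uty and Kdm5d were called lower, but 0 of these were without KO array 2 or KO array 3. Without GFP- array 2 their log2 differences were -2.41, -2.03 and -0.95. Without KO array 1, Eif2s3y was 16.8-fold lower (6.02-fold with it) and Uty 12.2-fold lower (5.21-fold with it).

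The same comparison in adults, on other arrays in the same model, called 7645 of 13842 genes (55.2%). Of the 1092 genes called at least 2-fold higher in perinates, 563 (51.6%) were so in adults, which is 58% of the 970 adult genes (7.01% of those tested). Of the 893 called at least 2-fold lower in perinates, 439 (49.2%) were so in adults, or 41.8% of 1049 (7.58%). Genes past 2-fold in opposite directions numbered 10 (higher in perinates) and 2 (lower in perinates). Across genes the differences at the ages correlated at 0.718 (Pearson) and 0.721 (Spearman), a description over genes that are not independent. The difference between the ages was itself tested, as the perinate difference minus the adult one, and 2853 genes were called (20.6%), 1691 with a more positive and 1162 with a more negative difference in perinates. With KO array 1 as the only perinate KO array 1623 were called.

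**Figure D5:**
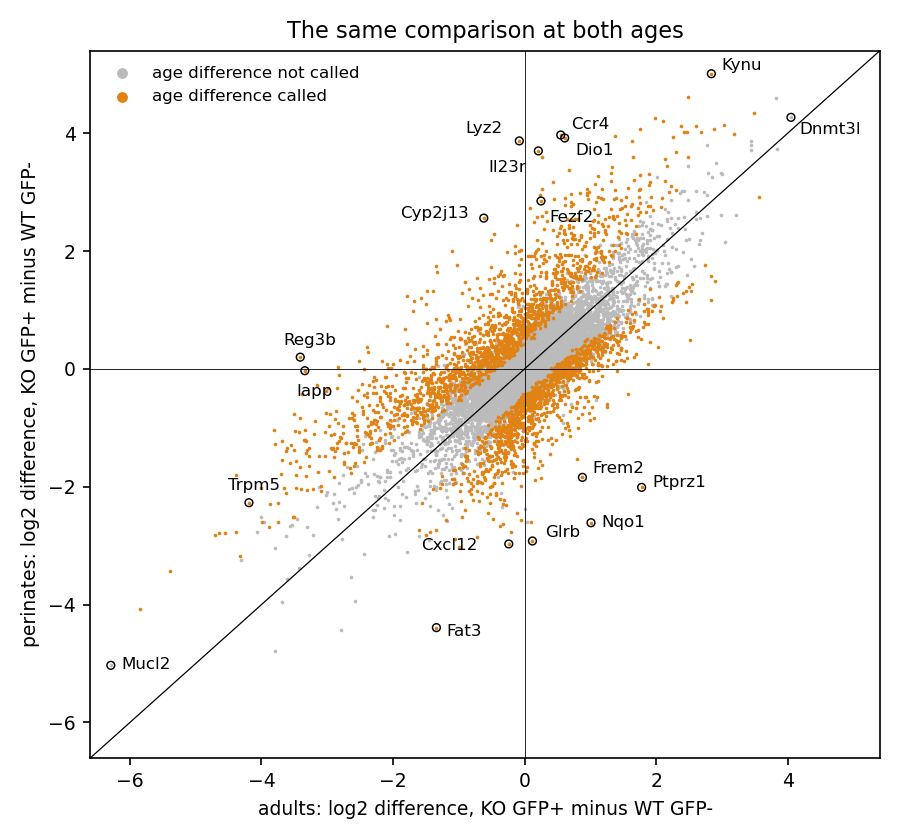
Log2 difference of KO GFP+ minus WT GFP- cells in adults (x axis, 3 against 3 arrays) and perinates (y axis, 3 against 2 arrays) for 13842 genes, with the line of equality; orange genes were called in the test of the difference between the ages. Lyz2, Ccr4, Dio1, Il23r and Fezf2 lie high at adult differences of -0.08 to 0.61, while Ptprz1, Nqo1 and Frem2 are lower in perinate and higher in adult KO GFP+ cells.

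The 8 genes named for a more positive difference in perinates were all dimmer in perinate than in adult GFP- cells. Lyz2 read 199.1 and 196.2 in perinate GFP- cells but 4502, 4659 and 3941 in adult GFP- cells, with 4260, 4267 and 3845 in adult KO cells. Its log2 difference was 3.87 in perinates and -0.08 in adults, and the 2 differed by 3.95 ± 0.15 (adjusted p = 7.74e-11). The interleukin-23 receptor Il23r read 1424, 1655 and 1206 in adult GFP- cells and 172.9 and 118.8 in perinate ones (difference between ages 3.50). The chemokine receptor Ccr4 (3.42), Fabp7 (3.32) and the deiodinase Dio1 (3.31) were likewise dimmer in perinate than in adult GFP- cells.

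Fezf2, which the list of regulators holds, also differed between the ages (2.60, adjusted p = 1.54e-06). It read 2974, 3272 and 2971 in adult GFP- cells and 4034, 3594 and 3371 in adult KO cells, a log2 difference of 0.25 in adults against 2.85 in perinates. The gut antimicrobial Reg3b and the islet peptide Iapp were also dimmer in perinate than in adult GFP- cells. Their KO cells were below GFP- cells in adults and not called against them in perinates. Reg3b read 346.7, 408.7 and 464.8 in adult GFP- cells and 49.98, 37.61 and 29.14 in adult KO cells (log2 difference -3.41), and 46.37 and 34.89 against 75.96, 32.65 and 39.68 in perinates (0.20, adjusted p = 0.614). Iapp differed by -3.34 in adults and by -0.03 in perinates. The log2 difference of the P450 gene Cyp2j13 was 2.56 in perinates and -0.62 in adults.

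The named genes with a more negative difference were brighter in perinate than in adult GFP- cells. Ptprz1, a receptor phosphatase, read 2046 and 2318 in perinate GFP- cells and 445.6, 593.4 and 602.4 in perinate KO cells, but 136.1, 191 and 222.9 in adult GFP- cells and 556.1, 753.4 and 562.6 in adult KO cells. Its log2 difference was -2.01 in perinates and 1.78 in adults, and the ages differed by -3.79 ± 0.26 (adjusted p = 1.43e-07). The quinone reductase Nqo1 (-2.61 in perinates, 1.01 in adults) and the matrix protein Frem2 (-1.84 and 0.88) likewise turned direction. Cxcl12 read 98.38, 98.84 and 107.6 in adult GFP- cells and 85.07, 85.55 and 87.38 in adult KO cells, so that its log2 difference was -2.97 in perinates and was not called in adults (-0.24, adjusted p = 0.0909).

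Gene lists differed between the ages in the same test. Of 13 tuft genes 8 had a more positive (less negative) difference in perinates, with a median of -0.97 in perinates and -2.25 in adults. Of 14 keratinisation genes 9 did (-1.25 and -2.83). Trpm5 read 1505, 2152 and 2065 in adult GFP- cells, far above the perinate 408.2 and 201.4. Of 17 mitosis genes 11 had a smaller difference in perinates (0.92 and 1.70), and of 12 matrix genes 9 a more negative one (-1.19 and -0.30). Of 13 cortical genes 7 had a more negative difference in perinates (-0.65 and 0.14), and of 12 cholesterol genes 8 a more positive one (1.09 and 0.15). The background for these counts was 12.2% of all genes with a more positive and 8.39% with a more negative difference.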

How the data were processed

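RNA of the sorted cells was measured in 17 samples, 1 array each, and groups were taken from the sample titles. The deposited table gives, for each probe set, a linear intensity. The submitters' processing notes name Affymetrix Power Tools and RMA, a method that corrects background, normalizes arrays by quantiles and summarises probes, as what the authors used for these intensities. Versions and filters: not given in the sources used here. All 24922 probe sets were read and 0 columns went unused. The platform annotation gave 1 symbol to 21425 of them, several to 1399 and none to 2098. For the 921 genes of 19752 with several probe sets the one with the highest mean was used.

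The log2 of each intensity was taken, without an offset. Tested were the 13842 genes that passed the 40th percentile on 2 or more arrays. All comparisons came from 1 linear model of 6 group means over the 17 arrays (limma 3.58.1 with eBayes, under R 4.3.3), with two-sided p-values adjusted by Benjamini-Hochberg over the 13842 genes. Its residual degrees of freedom were 11, with a prior of 5.52. The median standard error was 0.145 for the perinate comparison and 0.195 for the age difference, and the number of arrays limits the precision. Levels are single-array values and fold changes come from mean log2 intensities. In simulated data 67, 67 and 66 of 13842 genes were changed by 1.5-fold, 2-fold and 4-fold. Of these the model called 46.3%, 97% and 98.5% in the perinate comparison (7 false calls). In the age difference it called 22.4%, 74.6% and 98.5% (6 false calls). Far fewer genes were changed than were called on the real arrays, so the false calls give no error rate for the real calls.

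The 41 gene lists hold 524 genes, 416 of them tested. Named were Aire and G6pc2, the 15 largest called differences in each direction with groups that do not overlap, up to 4 called members of a list, 8 genes each way in the age difference and up to 4 each way in lists A, B and C, with further members of lists named by their values. The members and lists were chosen with earlier results of these data known. The alternatives tried were quantile normalization, centring, an offset of 50, other filters, other variance models, array weights, fewer arrays, means over probe sets, and each array left out. Promoter sequences came from RefSeq on GRCm38.p6, with 10989 of the tested genes matched. Probe sets with several symbols or none were fitted separately.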

Additional observations from a re-analysis of the deposited data

Results flagged for a closer look

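The comparison differed between the ages by its own test in 2853 genes, and the 16 named by the largest differences are given here as the perinate minus the adult log2 difference. More positive in perinates were Lyz2 (3.95), Reg3b (3.61), Il23r (3.50), Ccr4 (3.42), Fabp7 (3.32), Iapp (3.32), Dio1 (3.31) and Cyp2j13 (3.18). More negative in perinates were Ptprz1 (-3.79), Nqo1 (-3.62), Fat3 (-3.05), Glrb (-3.04), Cxcl12 (-2.74), Frem2 (-2.72), Slc38a4 (-2.69) and Ccdc80 (-2.56). The glycine receptor subunit Glrb read 509.9 and 359.3 in perinate GFP- cells and 34.62 to 37.14 in adult ones. The amino acid transporter Slc38a4 read 1753 and 1318 in perinate GFP- cells and 94.88 to 158.7 in adult ones. With KO array 1 as the only perinate KO array the difference of Reg3b was 4.33.

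Probe sets with several gene symbols or none, which no comparison of genes used, were tested as well. Of 2104 bright enough to be tested, 729 were called, 376 higher and 353 lower in KO GFP+ cells. This is a smaller share than the 50.7% of genes that were called. These probe sets are unnamed here.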

How the results depend on the processing

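The perinate comparison called 7015 genes in the main setting, 4698 to 7880 under 12 other settings and 5629 to 6381 with 1 array left out. The age difference called 2853 genes, 1623 with KO array 1 as the only perinate KO array, and 2282 to 2756 with 1 array left out. KO against WT GFP+ cells in perinates called 3664 genes, 2128 with a filter at the 60th percentile, 1171 with KO array 1 alone and 2399 to 3687 with 1 array left out. Lists A, B and C were picked again in each setting that held the adult groups, so their sizes may differ too. With an offset of 50, 166 genes of list A (294 in the main setting) and 291 of list C (448) were called lower. With that offset 583 genes in all were called at least 2-fold lower (893). With KO array 1 alone the Y-linked Eif2s3y (0.39) and Uty (0.09) turned direction, while KO arrays 2 and 3 were dim for both. Scaling moved the median of all genes from 0.01 to -0.03 (quantile normalization), -0.07 (centring) and 0.01 (offset). The cause of the other changes was not tested.

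The titles give KO and GFP- samples the shared numbers 1 and 2. Deviations of same-numbered arrays from their group means correlated at 0.27 and 0.166 over 13842 genes, in 2 pairs only. The deviations of the 2 GFP- arrays from their mean are exact opposites, so the pairs are not independent. They cannot decide whether same-numbered samples share more than a number. The replicate block gave 6382 calls in the perinate comparison, 2404 in the age difference and 262, 376 and 427 for lists A, B and C. Fits of only the 8 perinate or the 5 compared arrays could not be made for the age difference. With 2 GFP- arrays, 1 array can move a fold by over 1.5 times, as for Mucl2, Bpifa2, Bpifa1 and Gnat3, and intensities near the 40th percentile limit the folds of dim genes.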

Other observations

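The 5 genes that separated KO array 1 from KO array 2 by the largest difference upward were Eif2s3y (376.5 and 18.68), Uty (229.5 and 19.24), Ifi202b (402.8 and 65), Atf3 (2875 and 575.3) and Fosb (3732 and 775.7). Hspa1a, an inducible heat shock protein, went the other way, at 842.1 on KO array 1 and 4808 and 4335 on KO arrays 2 and 3, and read 1885 and 6169 on GFP- arrays 1 and 2. The X-linked Xist read 3638 on KO array 1, 5203 and 5167 on KO arrays 2 and 3, and 3730 and 3169 on the GFP- arrays. These genes were chosen after their values were seen.

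Among transcripts brighter on GFP- array 1 than GFP- array 2 were Scgb2b27 (291.2 and 15.2), Car6, a secreted carbonic anhydrase (799.8 and 52.76), Gp2 of microfold cells (523.7 and 111.3) and the claudin Cldn4 (2389 and 517.8). Transcripts brighter on GFP- array 2 included the small nucleolar RNA Snord49b (1888 and 5483) and the heat shock gene Hsph1 (255.9 and 791.7).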
